A study of Rattus norvegicus with 81 samples.

Results

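Keratins are the intermediate filament proteins of epithelial cells, and each filament is built from obligate pairs of a type I (acidic) and a type II (basic) chain. Which chains are made depends on the cell: Krt8 and Krt18 are the founding pair of simple and luminal epithelium, Krt5 and Krt14 the pair of basal cells, Krt1 and Krt10 that of the upper epidermis, and large subfamilies belong to the hair shaft and its root sheath. In the mammary gland Krt8, Krt18 and Krt19 mark luminal cells of ducts and alveoli, and Krt14 and Krt17 mark the basal, mostly myoepithelial layer. The family is described here in rat mammary glands as every array feature (transcript cluster) whose only gene symbol is Krt followed by a number, with or without a letter. This gave 47 keratin genes of 18166 genes, each with 1 transcript cluster, and 15 of the 6762 genes in a smaller deposited table that holds the DEP arrays.

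The glands came from 81 female Sprague-Dawley rats given methyl paraben (MPB), triclosan (TCS), diethyl phthalate (DEP) or olive oil (OIL), the vehicle given to control animals. Doses were low and had been set to match urinary levels found in people in the US. Perinatal groups were reached through the dam during gestation days (GD) 1-20 or through her milk during postnatal days (PND) 1-20, and 1 female pup per litter was killed at PND 21. Prepubertal groups (PND 21-41) were killed at PND 42, pubertal groups (PND 42-62) at PND 63, and chronic groups (TCS and OIL, through mating at PND 97, pregnancy and 28 days of lactation) at PND 146. MPB, TCS, DEP and OIL each had 5 animals in every short window, except TCS after PND 1-20 (4), PND 21-41 (3) and PND 42-62 (3), and the chronic TCS and OIL groups had 3 each. RNA of the 5th caudal gland pair was hybridised to Affymetrix whole-transcript arrays, and values are log2 expression from RMA, which brings all arrays to one common distribution and combines the probes of a cluster. All values are therefore on the log2 scale, differences are log2 differences ± standard error (SE), and no level of 1 gene is set against that of another, since probes differ in response.

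Krt8 and Krt18, the filament partners of glandular epithelium, lie beside each other on chromosome 7 of the rat, although Krt18 is a type I gene and the other measured type I keratins lie on chromosome 10. In the RefSeq annotation of the rat assembly GRCr8 the nearest genes to Krt8 are Krt78 and Krt18, and 26 of the 47 members were on chromosome 10 and 21 on chromosome 7. The promoter windows of Krt8 and Krt18, 250 bases before to 50 after the annotated start, are shown because the 2 are neighbours whose chains pair. Capitals mark matches on either strand to TATAAA (the core of the TATA box), GGGCGG (a GC box), TGANTCA (the AP-1 site) and GCCNNNGGC (the AP-2 site).
Krt8 promoter, GRCr8 chr7:135010290-135010589, minus strand: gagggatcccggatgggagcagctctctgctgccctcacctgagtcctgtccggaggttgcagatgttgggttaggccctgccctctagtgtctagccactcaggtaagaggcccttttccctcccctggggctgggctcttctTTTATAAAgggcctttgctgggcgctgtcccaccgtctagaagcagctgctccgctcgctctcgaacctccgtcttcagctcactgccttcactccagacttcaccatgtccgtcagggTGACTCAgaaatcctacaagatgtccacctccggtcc
Krt18 promoter, GRCr8 chr7:135035918-135036217, plus strand: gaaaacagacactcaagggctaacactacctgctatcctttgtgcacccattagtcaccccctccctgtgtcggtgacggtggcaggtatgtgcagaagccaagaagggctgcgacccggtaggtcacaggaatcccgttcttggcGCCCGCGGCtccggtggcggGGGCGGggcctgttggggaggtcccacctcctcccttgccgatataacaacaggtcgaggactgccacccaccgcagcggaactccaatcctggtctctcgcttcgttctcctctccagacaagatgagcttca
The Krt8 window held TATAAA on both strands, overlapping and beginning at -106 and -104 from the annotated start, and TGANTCA at 13. In the Krt8 sequence printed above, an ATG begins at that start. The Krt8 offsets therefore count from a start codon and not from a transcription start, and the TGANTCA match lies after that codon. The Krt18 window held GCCNNNGGC at -104 and GGGCGG at -84, and neither TATAAA nor TGANTCA. Of 33469 RefSeq rat promoter windows of 300 bases, 14.2% held TATAAA, 33.1% GGGCGG, 7.33% TGANTCA and 15.1% GCCNNNGGC. Windows were matched by symbol for 34 of the 47 keratins, of which 20 held TATAAA, 5 GGGCGG, 2 TGANTCA and 5 GCCNNNGGC.

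The arrays varied in tissue content and in batch. A score for each marker list, the mean deviation of its genes from their mean over arrays, ran from -0.94 to 5.14 for skeletal muscle and from -1.78 to 1.47 for B cells and lymph nodes in the 55 short-window MPB, TCS and OIL arrays. Their luminal epithelium score, over 25 genes that are not keratins, ran from -1.85 to 1.17. By label, 3 arrays of every group of 5 belonged to batch 1 and 2 to batch 2, TCS after PND 1-20 was split 3 to 1, and groups of 3 were all batch 1. Where groups held both (19 arrays of batch 2 against 30 of batch 1, a comparison chosen after the values were seen), 12 keratins were higher and 6 lower in batch 2 (27% and 29.6% of all genes), with Krt17 at -0.89 ± 0.14 and Krt8 at -0.58 ± 0.14 but Krt18 at 0.41 ± 0.15 in limma. In the table of DEP and its OIL arrays (16 arrays of batch 2 against 24 of batch 1) no gene was called by batch in limma. Of the 15 keratins there, 0 had an unadjusted p below 0.05 in limma, and the widest difference was -0.049, that of Krt17. The same 20 OIL arrays are in both tables, so DEP values and their batch splits rest on differently processed data. No label states a batch adjustment, and whether the DEP table had one was not tested. Batch was a term of every short-window fit. In bulk tissue, fewer cells of a type and less RNA per cell cannot be told apart.

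Over those 55 arrays the family divided by spread. For 8 members the SD of log2 values was above 0.5: the luminal Krt8 (0.90), Krt18 (0.87), Krt19 (1.13), Krt7 (0.54) and Krt23 (0.76), and the basal Krt14 (1.19), Krt15 (1.07) and Krt17 (0.94). For the other 39 it was at most 0.40, with Krt27, of the hair root sheath, just inside that bound at 0.40 and Krt7 just outside at 0.54. Over all genes 11.5% had an SD above 0.5, and the median SD was 0.24 against 0.22 for the 47 members. These 8 were singled out after their values were seen, so no test is made on them as a list. Members that moved together across glands are not separate observations, so a count of them in 1 direction is a description only. The flattest member was Krt1, a keratin of the upper epidermis, which lay between 5.99 and 6.60 in all 55 arrays. A mean under 6, low on this array, was found for 13 members, among them Krt20 of intestine and urothelium (4.66) and Krt25 of the hair root sheath (4.83).

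**Figure D1:**
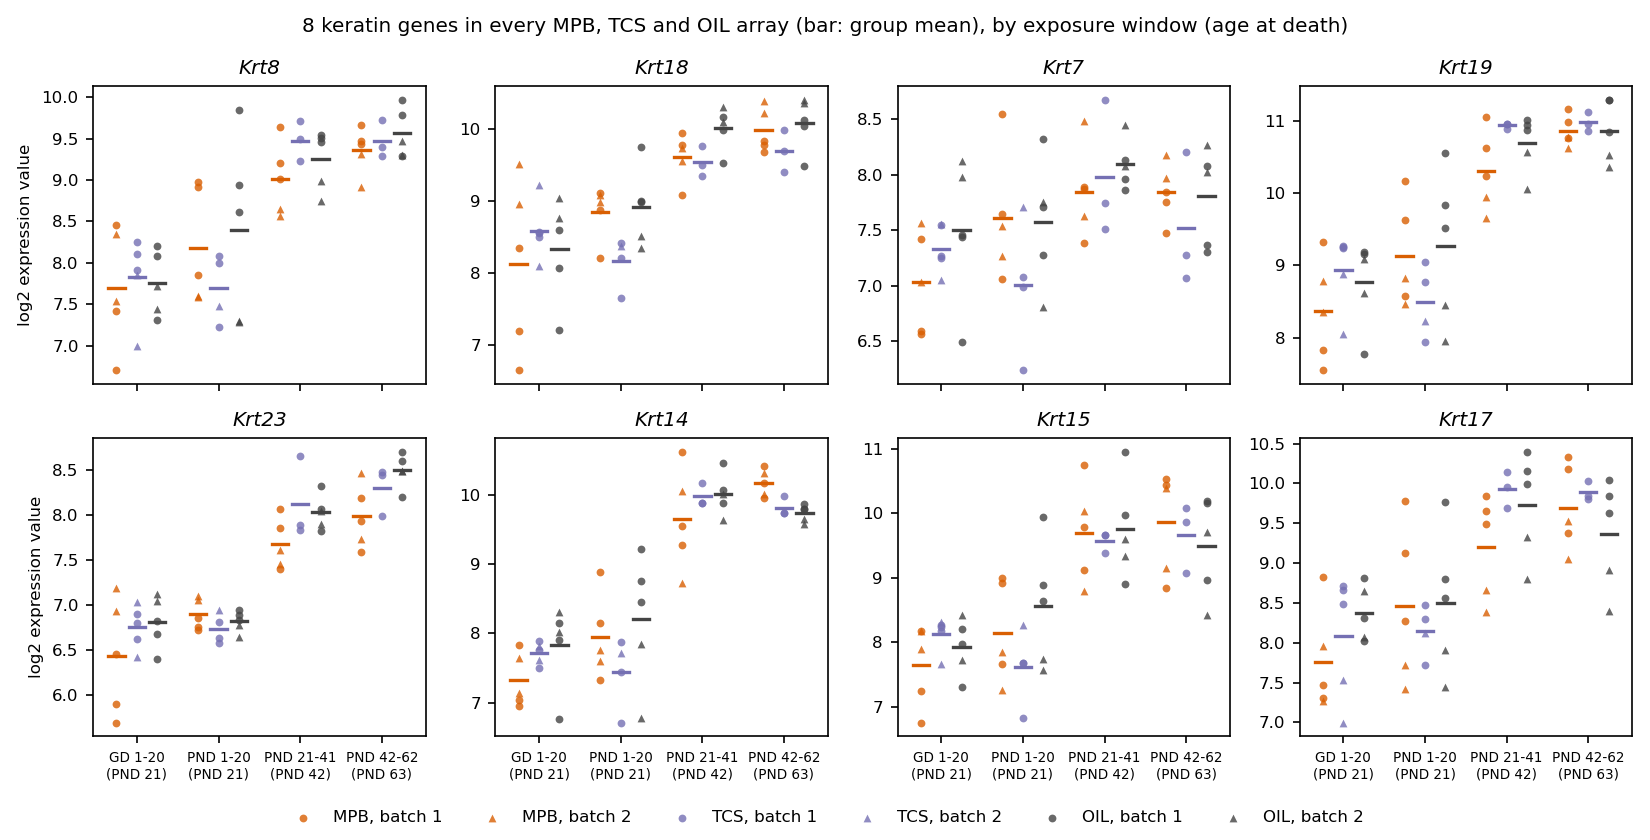
Log2 expression of 8 keratin genes (1 panel each, own vertical scale) in every MPB, TCS and OIL array, by exposure window with age at death in brackets; circles are batch 1, triangles batch 2, bars group means. In Krt14 the PND 42 and PND 63 groups of OIL lie above all 10 OIL arrays of PND 21, whereas in Krt7 the ages overlap.

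The OIL groups show how keratins differed with age in vehicle animals. Each age at death had its own exposure windows, so age and window of dosing cannot be told apart in any treatment. Between PND 21, when the gland is a small ductal tree, and PND 42, around puberty, 8 of the 47 keratins rose and none fell in limma at an adjusted p below 0.05 (12% of all genes rose, 10.5% fell). The risers were 4 of the 6 luminal and all 3 measured basal keratins, and Krt4. None of the 7 cornified, 7 root sheath, 14 hair shaft and 5 other members was called. Across the 47 keratins the median difference was 0.08, against 0.01 over all genes.

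Krt14, the basal keratin of myoepithelial cells, moved furthest. It was at 10.07, 10.45, 9.87, 9.64 and 10.01 in the 5 OIL arrays of PND 42, against 8.15, 6.77, 7.90, 8.31 and 8.02 in OIL after GD 1-20 and 8.45, 8.76, 9.21, 6.78 and 7.85 in OIL after PND 1-20, both killed at PND 21. The ages did not overlap: the mean was 10.01 ± 0.30 (SD, n = 5) at PND 42 and 8.02 ± 0.77 (n = 10) at PND 21, a difference of 1.99 ± 0.28 (adjusted p = 6.48e-05, limma). It was 1.93 in batch 1 and 2.08 in batch 2.

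Krt15, a basal keratin known from hair follicle stem cells, was 1.52 ± 0.35 higher (adjusted p = 0.00378), at 8.90 to 10.96 at PND 42 and 7.30 to 9.95 at PND 21, so the ages overlapped. Krt17, a basal keratin also induced in wounded skin, was 1.30 ± 0.23 higher (adjusted p = 0.000466). Its ages overlapped too, with the lowest PND 42 array at 8.81 and OIL replicate 3 after PND 1-20 at 9.76.

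Of the 4 luminal members that rose, Krt23, a type I keratin of glandular and gut epithelium, varied least within an age. Its values were 8.32, 7.83, 8.08, 7.90 and 8.05 at PND 42, against 6.82, 6.40, 6.68, 7.12 and 7.05 in OIL after GD 1-20 and 6.84, 6.89, 6.94, 6.65 and 6.78 in OIL after PND 1-20. The lowest PND 42 array lay above the highest PND 21 array, and the difference was 1.22 ± 0.11 (adjusted p = 1.06e-06, limma). Krt23 and Krt14 were the only keratins of the 47 whose ages did not overlap in OIL, a share that is not given here over all genes.

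Krt19, the small type I keratin of ducts that lacks most of the tail, was 1.68 ± 0.27 higher (adjusted p = 0.000232), with means of 10.69 ± 0.39 (n = 5) at PND 42 and 9.01 ± 0.85 (n = 10) at PND 21. Krt18 was at 10.17, 9.53, 9.99, 10.30 and 10.09 at PND 42, against 8.06, 7.21, 8.59, 9.04 and 8.76 after GD 1-20 and 9.002, 8.99, 9.74, 8.34 and 8.51 after PND 1-20, a difference of 1.39 ± 0.25 (adjusted p = 0.000601). Its type II partner Krt8 was at 9.55, 9.45, 9.51, 8.75 and 8.99 at PND 42, against 8.21, 7.31, 8.08, 7.72 and 7.45 after GD 1-20 and 8.61, 8.94, 9.84, 7.30 and 7.29 after PND 1-20, a difference of 1.17 ± 0.24 (adjusted p = 0.00171). OIL replicate 3 after PND 1-20 reached into the PND 42 range for both genes, and OIL replicate 2 of that group for Krt8 alone. Replicate 3 was the highest of the 10 at PND 21 for Krt8, Krt18, Krt7, Krt19, Krt14, Krt15 and Krt17, and the highest of them in luminal score (0.48).

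Krt7, the type II keratin of ductal epithelium, had values of 7.87 to 8.45 at PND 42 and 6.497 to 8.32 at PND 21, a difference of 0.56 ± 0.24 that missed the threshold (adjusted p = 0.102). The difference of Krt20 was -0.01 ± 0.25. Krt4, known from oesophagus and tongue, was called at 0.34 ± 0.12 (adjusted p = 0.0440), but the adjusted p rose to between 0.0524 and 0.154 when any of 11 of the 15 arrays was left out in turn. The lowest difference was that of Krt2, of the upper epidermis, at -0.28 ± 0.10 (adjusted p = 0.0505). Krt10 was at 0.26 ± 0.10 (adjusted p = 0.0682) and its partner Krt1 at -0.07 ± 0.06.

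**Figure D2:**
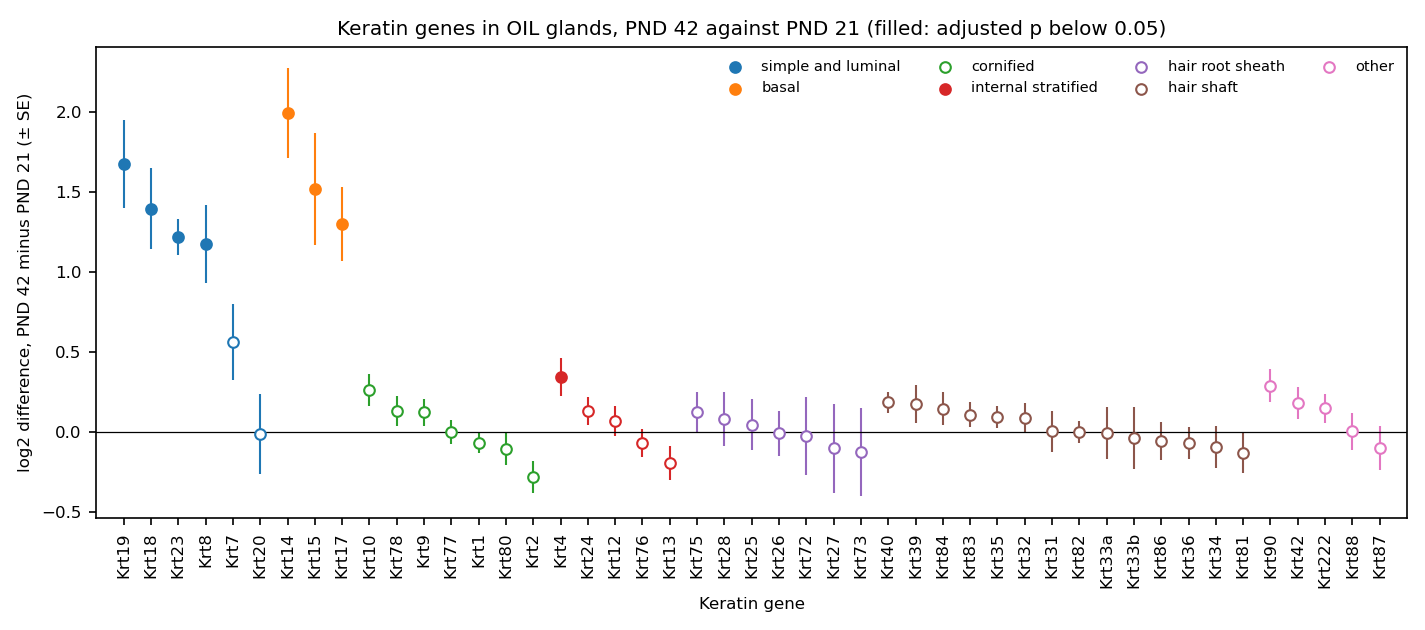
Log2 difference between PND 42 and PND 21 in OIL glands for the 47 keratin genes, in colour by class (bars: SE; filled points: adjusted p below 0.05). The luminal and basal members lie between 0.56 and 1.99 except Krt20, and the other classes between -0.28 and 0.34.

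Desmosome and linker genes hold keratin filaments to the cell edge, and of 20 measured 10 rose and none fell (median 0.32). The smallest p were those of Pkp2, a plakophilin of desmosomes (1.13 ± 0.15), of Evpl, envoplakin (0.85 ± 0.15), and of Fam83h, which positions casein kinase on keratin filaments (0.87 ± 0.15). Of the 17 other intermediate filament genes 1 rose and 2 fell. Nes, nestin, rose by 0.45 ± 0.10, Iffo1 fell by 0.36 on the log2 scale (SE 0.12), and Vim, vimentin of connective tissue, fell by 0.14 on the log2 scale (SE 0.05, adjusted p = 0.0480). Of 20 epidermal barrier genes only Calml3 and Aloxe3 rose, and of 26 hair follicle genes that are not keratins 4 rose and 1 fell, with the smallest p for Vdr, the vitamin D receptor (1.67 ± 0.20), Msx2 (1.11 ± 0.14) and Gata3 (1.43 ± 0.20), which mammary epithelium also expresses. Gata3 is on the luminal list too.

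Other epithelial markers differed over the same ages. Of the 25 luminal markers that are not keratins 23 rose (median 1.47), among them Muc1, a mucin of the luminal surface (1.96 ± 0.19). Their score ran from 0.67 to 1.12 in OIL at PND 42, against -1.72 to -0.25 after GD 1-20 and -1.02 to 0.48 after PND 1-20. Of the 14 basal and myoepithelial markers 5 rose (median 0.17), with the smallest p for Egfr (1.05 ± 0.12), Oxtr, the oxytocin receptor (1.79 ± 0.23), and Lamb3, a laminin chain (0.93 ± 0.15). Of 12 B cell and lymph node markers 11 fell (median -1.41), of 18 adipocyte markers 14 fell and 2 rose (median -0.60), and of 15 muscle markers none was called (median 0.42). In a fit that also held the luminal score, 1 keratin was called, Krt23 (0.68, adjusted p = 0.0367), among 0.782% of all genes. In one that held the scores for muscle and B cells 3 were, Krt14, Krt19 and Krt23, among 9.38% of all genes, against 22.4% without either. The part of epithelial content in the keratin differences was not tested otherwise.

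Beyond OIL, 7 keratins, Krt8, Krt14, Krt15, Krt17, Krt18, Krt19 and Krt23, were called as higher at PND 42 than at PND 21 in MPB (3.53% of genes rose), in TCS (8.87%) and, from its own table, in DEP (22%). Krt14 differed by 2.01 ± 0.27 in MPB, 2.44 ± 0.20 in TCS, 1.88 ± 0.36 in DEP and 1.99 ± 0.28 in OIL. Krt23 differed by 1.02 ± 0.19 in MPB, 1.41 ± 0.19 in TCS, 1.14 ± 0.15 in DEP and 1.22 ± 0.11 in OIL. For TCS none of these 7 overlapped between ages, with 3 arrays at PND 42 and 9 at PND 21. How many of all genes were free of overlap there is not given here, so this is no trait of keratins. DEP also had 1 keratin lower (13.6% of genes), Krt86, a type II keratin of the hair shaft, at 7.22 ± 0.12 (n = 5) at PND 42 and 7.52 ± 0.15 (n = 10) at PND 21 (-0.30 ± 0.09, adjusted p = 0.0148). The age difference of Krt7 was 0.53 ± 0.22 in MPB, 0.92 ± 0.32 in TCS and 0.23 ± 0.41 in DEP, and passed in none of them.

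In MPB Krt8, Krt17 and Krt18 were no longer called without PND 42 replicate 1 or without PND 42 replicate 2, and the 4 that passed in both cases were Krt14, Krt15, Krt19 and Krt23. In batch 2 of MPB alone, with 2 arrays at PND 42, no keratin was called, and Krt14 was 1.85 higher there against 2.12 in batch 1. Age here includes the exposure window that went with it. Tested as a difference of differences in limma, the age effect of no keratin differed between a chemical and OIL at an adjusted p below 0.05, as 0%, 0% and 0.0296% of all genes did for MPB, TCS and DEP. At an unadjusted p below 0.05 it was 1 of 47 keratins for MPB (6.62% of genes), 1 of 47 for TCS (2.88%) and 0 of 15 for DEP (1.77%).

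Between PND 42 and PND 63 no keratin was called in any treatment, whereas 0.782% of genes were in OIL, 0.308% in MPB, 0.0055% in TCS and 0.0887% in DEP. At an unadjusted p below 0.05 it was 3 keratins in OIL (12.7% of genes), 4 in MPB (11.2%), 0 in TCS (4.33%) and 0 in DEP (10.5%). The nearest was Krt23 in OIL, at 8.20, 8.61, 8.71, 8.50 and 8.49 at PND 63, against 8.32, 7.83, 8.08, 7.90 and 8.05 at PND 42. The ages overlapped through OIL replicate 1 of PND 63 and OIL replicate 1 of PND 42, and the difference was 0.47 ± 0.13 (adjusted p = 0.105). It passed without the PND 42 array, the lone array whose omission changed this count, in a fit whose share of all genes is not given here. Krt23 differed by 0.30 ± 0.22 in MPB, 0.18 ± 0.22 in TCS and 0.02 ± 0.17 in DEP. The test of the difference in age effect between MPB and OIL was led by Krt36, a type I hair keratin, at -0.52 ± 0.15 (adjusted p = 0.490).

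The effect of each chemical was tested against OIL of the same window. No keratin passed in any of the 13 comparisons, where 0 to 0.0148% of all genes did. The MPB, TCS and DEP comparisons of a window share their OIL animals, so a low or high OIL group enters each of them. DEP values come from the separate table and are set beside OIL copies of that table only. A p that missed the threshold does not show that groups were alike, and the intervals follow from the SE given.

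After GD 1-20, 2 of 47 keratins had an unadjusted p below 0.05 in MPB (4.02% of genes), 2 of 47 in TCS (6.8%) and 0 of 15 in DEP (6.97%). For MPB they were Krt33a, a hair shaft keratin (-0.39 ± 0.16, adjusted p = 0.984), and Krt23 (-0.38 ± 0.18). Krt23 was at 5.69, 6.46, 5.90, 7.19 and 6.93 in MPB, against 6.82, 6.40, 6.68, 7.12 and 7.05 in OIL, so 2 MPB arrays lay below the OIL range. These 2, MPB replicates 1 and 3, also had the lowest luminal scores of their group (-1.85 and -1.75), and muscle scores of 5.14 and 0.95. MPB replicate 2, within the OIL range at 6.46, had a muscle score of 3.73. The Krt23 difference was -0.62 in batch 1 and -0.03 in batch 2. All 8 widely varying members were lower in MPB over both batches (median -0.39) and in batch 1, and 6 of 8 in batch 2, without the share of all genes given here. For TCS the 2 with an unadjusted p below 0.05 were Krt20 (0.24 ± 0.10) and Krt25 (-0.37 ± 0.18), both low on this array. The highest OIL value of Krt25 (5.82) was that of OIL replicate 2, which was highest for other root sheath keratins too.

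In DEP after GD 1-20 the 8 widely varying members ran from -0.15 (Krt23) to 0.93 (Krt15). Krt15 was at 7.89, 7.03, 9.18, 11.59 and 7.82 in DEP, against 8.02, 6.93, 7.81, 8.32 and 7.77 in OIL. Krt14 was at 7.82, 7.21, 8.65, 10.64 and 7.99 in DEP, against 8.01, 6.49, 7.72, 8.08 and 7.95 in OIL. DEP replicate 4 lay far above the other arrays in both genes. Without it Krt15 differed by 0.18 instead of 0.93 ± 0.62, and Krt14 by 0.25 instead of 0.81 ± 0.53. The same array was the highest of the 40 in its table for Krt7 (10.31) and for Krt13, of internal stratified epithelium (9.04, next 7.55). Its luminal score was 0.26, the highest of its group, and its basal score 0.53, the highest of all 40 arrays.

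After PND 1-20, 0 of 47 keratins had an unadjusted p below 0.05 in MPB (1.67% of genes), 2 of 47 in TCS (6.25%) and 0 of 15 in DEP (2.72%). The 2 were Krt15 (-0.98 ± 0.41, adjusted p = 0.765) and Krt14 (-0.80 ± 0.38, adjusted p = 0.788). Krt15 was at 6.83, 7.67, 7.68 and 8.26 in TCS, against 8.89, 8.64, 9.95, 7.57 and 7.74 in OIL. The batches opposed each other: the Krt15 difference was -1.77 in batch 1 and 0.61 in batch 2, which held 1 TCS array, and without OIL replicate 3 it was -0.63. The other widely varying members were split in the same way: all 8 differences were negative in batch 1 (-1.77 to -0.22), and in batch 2 there were 7 positive ones and Krt18 at -0.05. Over both batches the median of the 8 was -0.74, and all 25 luminal markers that are not keratins were lower (median -0.73), with luminal scores of -1.41 to -0.71 in TCS and -1.02 to 0.48 in OIL. The share of all genes that were lower in TCS is not given here. For MPB the smallest p were those of Krt83 of the hair shaft (0.20 ± 0.10) and Krt87 (-0.23 ± 0.13), and for DEP those of Krt17 (-0.41 ± 0.30) and Krt14 (-0.68 ± 0.53). In DEP the 8 widely varying members had differences of -0.77 to -0.13 over both batches, against the same OIL animals. The batches opposed each other: all 8 were negative in batch 1 (-1.45 to -0.20) and 7 were positive in batch 2, up to 0.75 for Krt8. MPB was split likewise against these OIL animals. There 7 of the 8 were negative in batch 1 (median -0.51) and 6 were positive in batch 2 (median 0.33).

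**Figure D3:**
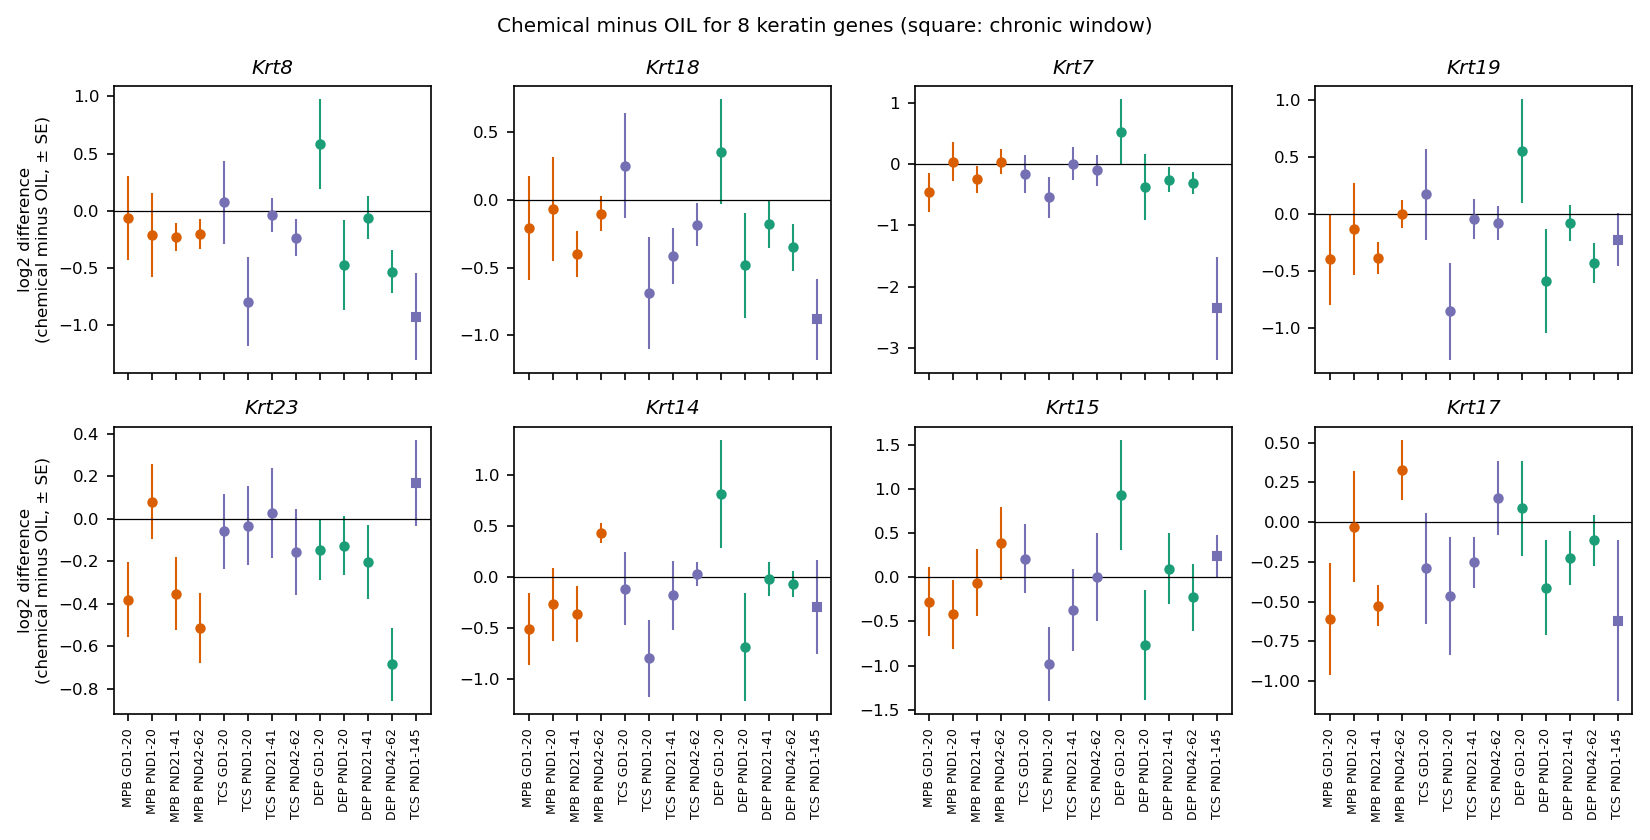
Log2 difference between chemical and OIL (points, bars: SE) for 8 keratin genes in each window, MPB, TCS and DEP from left to right with the chronic TCS window as a square; each panel has its own vertical scale. No difference passed the threshold, and the widest is Krt7 in chronic TCS (-2.35 ± 0.84).

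After PND 21-41, 6 of 47 keratins had an unadjusted p below 0.05 in MPB (9.84% of genes), 2 of 47 in TCS (2%) and 0 of 15 in DEP (2.26%). Krt17 led in MPB, at 9.48, 9.84, 9.66, 8.66 and 8.39 in MPB, against 9.99, 10.15, 10.40, 8.81 and 9.32 in OIL (-0.53 ± 0.13, adjusted p = 0.508). The groups overlapped over both batches, and within batches the difference was -0.52 in batch 1 and -0.54 in batch 2. Krt36 was next (0.33 ± 0.09, adjusted p = 0.508). All 8 widely varying members were lower in MPB (median -0.36), within each batch too, as were 24 of 25 luminal markers that are not keratins (median -0.42), with luminal scores of 0.01 to 1.10 in MPB and 0.67 to 1.12 in OIL. The share of all genes that were lower is not given here, so the count is not read as a result about keratins. In the same comparison 11 of 12 B cell markers (median 1.24) and 22 of 22 cell cycle genes (median 1.00) had a positive difference, 0 of them past the threshold, and their part in the keratin differences was not tested. In TCS the smallest p was that of Krt27, a root sheath keratin (-0.32 ± 0.14), and Krt84, of the hair shaft and nail, followed (-0.34 ± 0.16). In DEP it was that of Krt86 (-0.17 ± 0.11), then Krt90 (-0.17 ± 0.13).

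After PND 42-62, 4 of 47 keratins had an unadjusted p below 0.05 in MPB (17.8% of genes), 0 of 47 in TCS (3.01%) and 3 of 15 in DEP (14.7%). Krt14 was at 10.41, 9.95, 10.17, 10.31 and 10.02 in MPB, against 9.80, 9.86, 9.80, 9.65 and 9.58 in OIL. The groups did not overlap, and the difference was 0.43 ± 0.10 (unadjusted p = 0.000749, adjusted p = 0.145, limma), with 0.36 in batch 1 and 0.55 in batch 2. It passed without MPB replicate 2 (adjusted p = 0.0262), as did Krt39, a type I hair keratin (0.37 ± 0.10, adjusted p = 0.0324 without that array), and Krt14 passed in a fit that held the muscle and B cell scores (adjusted p = 0.0497). The share of all genes that passed in these fits is not given here, so the passes are not read as a result about keratins. Of the 14 basal and myoepithelial markers that are not keratins, 13 had a negative difference in MPB (median -0.17, 0 past the threshold), with scores of 0.12 to 0.23 in MPB and 0.23 to 0.56 in OIL. Luminal scores were 0.86 to 1.17 in MPB and 0.72 to 1.09 in OIL. The other basal keratins gave 0.38 ± 0.41 for Krt15 and 0.33 ± 0.19 for Krt17. TCS animals of this window had Krt14 at 9.73, 9.73 and 9.98, a difference of 0.03 ± 0.12, and the smallest p in TCS were those of the root sheath keratins Krt72 (0.24 ± 0.13) and Krt75 (0.26 ± 0.16). Krt34, of the hair shaft, was the fourth in MPB (-0.28 ± 0.10).

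The Krt23 mean was lower in MPB and in DEP than in OIL after PND 42-62. It was at 8.20, 7.94, 7.59, 7.74 and 8.47 in MPB, against 8.20, 8.61, 8.71, 8.50 and 8.49 in OIL (-0.51 ± 0.17, adjusted p = 0.166). In the table of DEP it was at 7.72, 7.60, 7.94, 7.36 and 8.09 in DEP, against 8.09, 8.54, 8.82, 8.35 and 8.33 in OIL. The highest DEP array (8.092) lay just under the lowest OIL array (8.094), and the difference was -0.68 ± 0.17 (unadjusted p = 0.00249, adjusted p = 0.228). Both comparisons rest on the same 5 OIL animals. In DEP, Krt8 (-0.53 ± 0.19) and Krt19 (-0.43 ± 0.17) were the others below 0.05 unadjusted, and all 8 widely varying members were lower (median -0.33, against -0.04 over all genes), 7 of 8 within each batch.

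Other tissue markers differed between the same DEP and OIL arrays at PND 63. Of the 25 luminal markers that are not keratins 22 were lower in DEP (median -0.30). All 4 measured epidermal barrier genes were lower, with scores of -0.17 to 0.24 in DEP and 0.30 to 0.67 in OIL, and all 14 muscle markers were higher, with scores of -0.93 to 3.24 in DEP and -1.33 to -0.79 in OIL. With the skin score as a covariate the Krt23 difference was 0.12 and with the muscle and B cell scores it was -0.87. The skin scores of DEP and OIL did not overlap, so DEP and that score, of 4 genes, cannot be told apart in that fit. The part of these tissues in the result was not tested further.

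Whether the effect of a chemical differed between the 4 short windows was tested with limma's moderated F test, and no keratin passed. The smallest adjusted p was 0.618 for MPB (Krt36), 1.00 for TCS (Krt35) and 0.877 for DEP (Krt23), where 0.0055%, 0% and 0.0148% of genes passed. An unadjusted p below 0.05 was found for 2 keratins in MPB (7.16% of genes), 0 in TCS (3.39%) and 0 in DEP (4.32%). Between OIL after GD 1-20 and OIL after PND 1-20 no keratin was past the threshold (0.0055% of genes passed, and 2 of 47 keratins were at an unadjusted p below 0.05, 6.8% of genes). Their Krt8 means were 7.75 ± 0.39 after GD 1-20 and 8.40 ± 1.10 after PND 1-20 (n = 5 each, -0.65 ± 0.37).

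In the chronic window, 3 TCS and 3 OIL glands at PND 146 were compared at the end of lactation, in arrays normalized by themselves. No gene of the 18166 was called in limma, and 5 of 47 keratins had an unadjusted p below 0.05 (12.9% of genes). Krt7 was at 6.11, 8.54 and 6.21 in TCS, against 10.75, 7.82 and 9.34 in OIL, a difference of -2.35 ± 0.84 (unadjusted p = 0.0235, adjusted p = 0.323). TCS replicate 2 lay above the lowest OIL array, so the groups overlapped. Krt18 was at 9.61, 10.33 and 9.52 in TCS, against 11.22, 10.20 and 10.69 in OIL (-0.88 ± 0.30, adjusted p = 0.322). Krt8 was at 8.66, 9.85 and 8.58 in TCS, against 10.30, 9.36 and 10.19 in OIL (-0.93 ± 0.38, adjusted p = 0.360). In all 3 genes the arrays that crossed over were TCS replicate 2 and OIL replicate 2.

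Krt42, a type I keratin of rodents, was at 3.76, 3.55 and 3.76 in TCS, against 4.71, 3.85 and 4.67 in OIL, with no overlap (-0.72 ± 0.23, adjusted p = 0.316) but low on this array. The groups did not overlap for 4 of 47 keratins, Krt25, Krt42, Krt77 and Krt78. Groups this small can separate by chance, and the share of all genes without overlap is not given here. The count is therefore no trait of keratins. Krt77, an epidermal keratin, was 0.30 ± 0.12 higher in TCS. Krt80, of differentiating epithelia, had 1 OIL array at 7.64 and the other 5 arrays between 4.90 and 5.35, and that OIL array, replicate 1, was also the highest for Krt7, Krt8, Krt18 and Krt17. The luminal score over genes that are not keratins ran from -0.17 to 0.07 in TCS and 0.04 to 0.12 in OIL, with 13 of 25 genes lower. All 15 muscle markers were lower in TCS (median -0.89), with scores of -1.30 to 0.86 in TCS and -1.29 to 1.87 in OIL. With the luminal score as a covariate the Krt18 difference was -0.19.

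**Figure D4:**
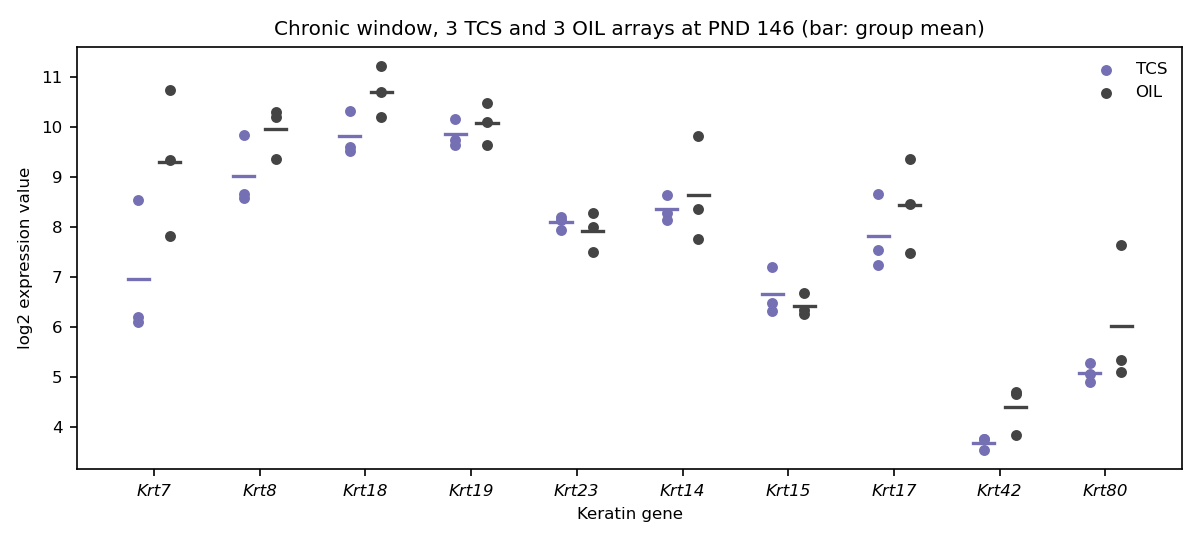
Log2 expression of 10 keratin genes in the 3 TCS (left of each pair) and 3 OIL (right) arrays of the chronic window; bars are group means, and heights are not comparable between genes. Krt7 spans 6.11 to 8.54 in TCS and 7.82 to 10.75 in OIL, and Krt42 alone of those shown does not overlap.

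Chains that pair in filaments were then compared across the 29 MPB, TCS and OIL arrays of PND 21, as deviations from group means. Krt8 with Krt18 gave r = 0.577 (permutation p = 0.00108, adjusted over 4 pairs 0.00144) and rho = 0.499 (permutation p = 0.00602, adjusted 0.00803). Within-batch values of r, here and below, use deviations from the mean of a group's arrays in that batch. On that measure the relation was tighter, at r = 0.928 over 18 arrays of batch 1 and 0.946 over 10 of batch 2. Krt8 was lower and Krt18 higher in batch 2. Each group then had 2 arrays in batch 2 whose deviations mirror each other, so those 10 values hold fewer independent ones. The lone batch 2 array of TCS after PND 1-20 is in neither within-batch value. Without the 2 arrays farthest from the median of Krt8, r over both batches was 0.529.

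Krt7 with Krt19 gave r = 0.697 (permutation p = 4e-05, adjusted 8e-05) and rho = 0.640 (permutation p = 0.00026, adjusted 0.00052), with 0.937 in batch 1, 0.722 in batch 2 and 0.618 without 2 arrays. Krt1 with Krt10, the epidermal pair, gave r = 0.461 (permutation p = 0.0124, adjusted 0.0124) and rho = 0.469 (permutation p = 0.0109, adjusted 0.0109), with 0.479 in batch 1, 0.361 in batch 2 and 0.517 without 2 arrays. Krt8 with Krt14, which belong to different layers and do not pair in the gland, gave r = 0.791 and rho = 0.825 (permutation p = 1e-05 for each, the smallest the resamples can give, adjusted 4e-05). Within batches r was 0.877 in batch 1 and 0.434 in batch 2. The batch 2 value rests on pairs of arrays centred within the batch, so it is not on the measure of the r over both batches. Without 2 arrays r over both batches was 0.767. In 10 DEP arrays of PND 21, a check added after the data were seen, Krt8 with Krt18 gave r = 0.878 (permutation p = 0.00141, adjusted over 3 pairs 0.00211) and rho = 0.782 (permutation p = 0.011, adjusted 0.0165). Krt7 with Krt19 gave r = 0.885 (permutation p = 0.00026, adjusted 0.00078) and rho = 0.830 (permutation p = 0.00454, adjusted 0.0136). Krt8 with Krt14 gave r = 0.676 (permutation p = 0.0211, adjusted 0.0211) and rho = 0.648 (permutation p = 0.0504, adjusted 0.0504). Without the 2 arrays farthest out, r was 0.784 for Krt8 with Krt18, 0.714 for Krt7 with Krt19 and 0.738 for Krt8 with Krt14. The arrays share their tissue content, so the values describe how levels moved together across glands.

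**Figure D5:**
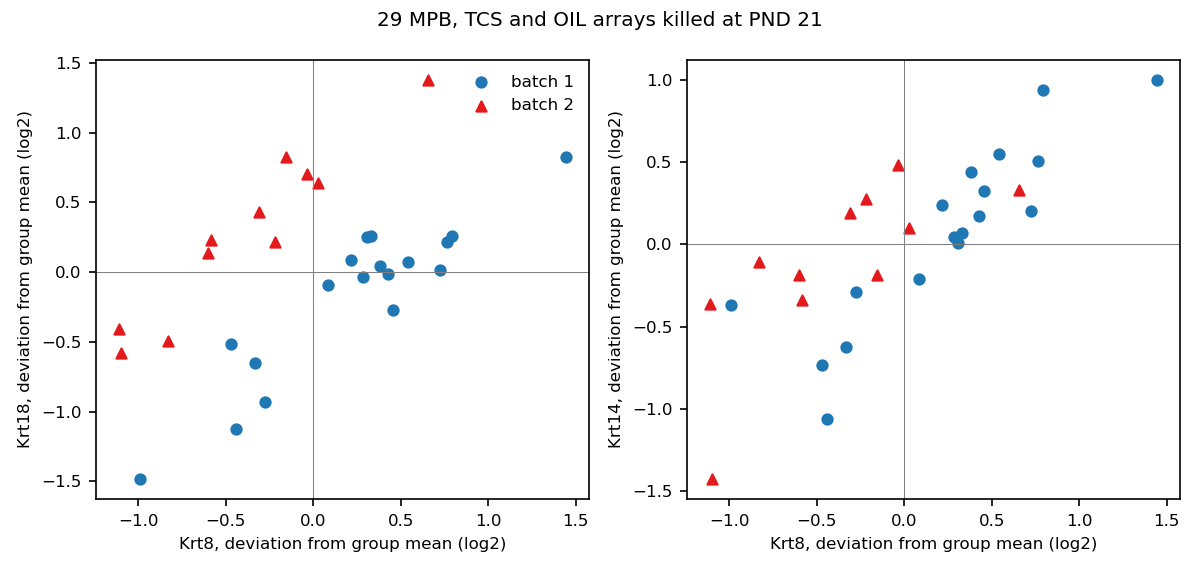
Deviation from the group mean (log2) of Krt18 (left) and Krt14 (right) against that of Krt8 in 29 MPB, TCS and OIL arrays of PND 21; circles are batch 1 and triangles batch 2. The batches form 2 parallel bands for Krt8 with Krt18 (r = 0.577 over the plotted values). Within batches r was 0.928 and 0.946, from deviations from group means within the batch, which are not those plotted.

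Some of the 39 members of low spread stood out in single arrays, which were picked after their values were seen. OIL replicate 2 after GD 1-20 held the highest of 55 values for all 7 root sheath keratins. There Krt73 was at 9.08 (next highest array 7.21, median 6.71), Krt27 at 7.88 (next 6.94, median 5.93), Krt72 at 7.26 (next 5.98, median 5.46) and Krt26 at 6.30 (next 5.61, median 5.23). These encode inner root sheath chains, type II for Krt72 and Krt73 and type I for Krt26 and Krt27. The same array had the lowest Krt14 of its group (6.77) and a luminal score of -1.72. It is 1 of the 10 OIL arrays of PND 21, and without it the Krt14 difference between PND 42 and PND 21 was 1.83 instead of 1.99. In the DEP table Krt73 reached 10.42 in DEP replicate 3 after GD 1-20 (next highest 8.64, median 6.51), whose muscle score was 5.62. Krt20, of intestine, urothelium and Merkel cells, was at 6.68 in OIL replicate 5 after PND 42-62, against 5.05 in the next highest array and a median of 4.62.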

How the data were processed

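The authors deposited log2 expression values per transcript cluster, which the submitters' processing notes credit to RMA in Affymetrix Expression Console (versions and build not given in the sources used here). RNA had an integrity number of at least 7, and 250 ng per array was labelled with biotin, per the labels' protocols. The value table held 36685 clusters for MPB, TCS and OIL (18511 with 1 symbol, 575 with several, 17599 unlisted), and DEP with its OIL copies, deposited apart, 7780. DEP was compared only within that table, and the 6 chronic arrays, normalized by themselves, only with each other. Genes with several clusters were taken at that of highest mean, and low values were not filtered.

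Each comparison was fitted with limma 3.58.1 (lmFit, eBayes) in R 4.3.3 (package data.table, version 1.17.8) over all genes and all groups killed at that age (for age, over the arrays of a treatment), with a batch term for the short windows. Tests were 2-sided, and p was adjusted by Benjamini-Hochberg over 18166 or 6762 genes, with a threshold of 0.05. A level is a mean ± SD. The few arrays per group limit precision. Pair correlations used 100000 permutations in Python 3.11.15 (scipy 1.17.1, numpy 2.4.6, pandas 2.3.3), and figures matplotlib 3.10.9. On simulated data with 200 genes changed by a log2 value of 1, the fit recovered 91.5% for OIL at PND 42 against PND 21 and 60.5% for the chronic window. False calls numbered 17 and 2. The simulated noise was independent between genes and held no batch or shared tissue content, so recovery in the real arrays may differ.

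Named keratins were those past the threshold, the 2 with the smallest p in each comparison with OIL and a preset set. Of that set Krt5, Krt6a, Krt16 and Krt79 were not analysed here. The members and lists were chosen with earlier results of these data known. Alternatives covered batch, low values, clusters, normalization, eBayes, tissue scores, arrays left out, groups fitted and deposited table. Each array is 1 animal, and the labels state separate litters for perinatal pups only.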

Additional observations from a re-analysis of the deposited data

Results flagged for a closer look

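In groups of 4 or 5 arrays, 306 groups of values over 25 keratins were searched for an array far from the rest, and 24 were found, where chance gives about 1 group in 20. All values are log2 expression. OIL replicate 2 after GD 1-20 was highest for Krt73 (9.08, nearest 6.98), Krt33b (7.11, nearest 6.06) and Krt39 (5.71) and lowest for Krt14 (6.77, nearest 7.90). DEP replicate 3 after GD 1-20 was highest for Krt73 (10.42, nearest 6.63), and DEP replicate 4 of that group for Krt13 (9.04, nearest 7.51). OIL replicate 5 after PND 42-62 was highest for Krt20 (6.68, nearest 4.57).

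Of the widely varying keratins, Krt15 was lowest in TCS replicate 5 after GD 1-20 (7.67), an array with a muscle score of 4.83. Krt18 was lowest in MPB replicate 3 after PND 1-20 (8.20, nearest 8.87), where Krt25 was highest (5.37). Krt8 was lowest in DEP replicate 1 after PND 21-41 (8.30, nearest 9.07). After PND 42-62 Krt17 was highest in DEP replicate 2 (9.61) and Krt19 lowest in DEP replicate 4 (9.65, nearest 10.38).

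The others differed by less. Krt13 was lowest in DEP replicate 2 after PND 21-41 (6.43) and highest in MPB replicate 2 after PND 1-20 (7.77) and MPB replicate 1 after PND 21-41 (7.54). Krt26 was lowest in OIL replicate 4 after PND 1-20 (5.09) and highest in OIL replicate 4 after PND 21-41 (5.56). Krt33b was lowest in DEP replicate 4 after PND 1-20 (5.89). Krt39 was lowest in MPB replicate 4 after GD 1-20 (5.21) and MPB replicate 4 after PND 1-20 (5.06), and highest in OIL replicate 2 after PND 1-20 (6.04). Krt72 was lowest in OIL replicate 2 after PND 42-62 (5.19), and Krt73 highest in DEP replicate 4 after PND 21-41 (6.96).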

How the results depend on the processing

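No paired analysis was possible because replicate numbers were given in accession order and only name animals. The counts of called keratins stayed within 1.5 times the stated ones under all alternatives except those that follow. In OIL at PND 42 against PND 21 the count was 3 once muscle and B cell scores were held and 1 with the luminal score, and 7 to 11 with an array left out. In OIL at PND 63 against PND 42 it was 1 with either and 0 to 1 with an array left out. In MPB at PND 42 against PND 21 it was 0 in batch 2 alone, 0 with the luminal score and 4 to 8 with an array left out. In TCS it was 0 with the luminal score. In DEP it was 1 in batch 2 alone (Krt17), 5 with muscle and B cell scores and 0 with the luminal score. In MPB after PND 42-62 it was 1 with muscle and B cell scores (Krt14) and 0 to 2 with an array left out. Of these fits, the share of all genes called is given above only for the 2 score fits in OIL at PND 42 against PND 21. The correlation of Krt8 with Krt14 was 0.434 in batch 2, from pairs of arrays centred within group and batch, which is another measure than that over both batches.

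With the luminal score as a covariate, these differences between PND 42 and PND 21 turned negative: in OIL Krt19 (-0.069), Krt18 (-0.17) and Krt8 (-0.17), in MPB Krt8 (-0.28), Krt18 (-0.31) and Krt17 (-0.26), in TCS Krt8 (-0.060) and Krt18 (-0.48), and in DEP Krt19 (-0.44), Krt14 (-0.33), Krt18 (-0.33), Krt8 (-0.52) and Krt15 (-1.38). Against OIL, DEP after PND 1-20 turned positive in batch 2 alone for 7 of the 8 widely varying keratins, among them Krt17 (0.093) and Krt14 (0.30), and for Krt14 (0.029) with the luminal score. DEP after PND 42-62 turned positive for Krt23 (0.12) and Krt8 (0.087) with the skin score and for Krt8 (0.0073) with muscle and B cell scores. The luminal score rose with age itself, so age and that score cannot be told apart in these fits. The skin scores of DEP and OIL after PND 42-62 did not overlap, so DEP and that score cannot be told apart either. The cause of the other changes was not tested. Among single keratins 54 calls were lost under an alternative other than leaving out an array, and 1 was gained.

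Limits: groups of 3 to 5 arrays, chronic groups without a batch 2, 13 keratins near the low end of the array, and 32 keratins not analysed here in DEP. Marker lists bound tissue content only as far as their genes go.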
